A study of Mus musculus with 20 samples.

Results

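Ucp3 and Ucp2 encode the mitochondrial uncoupling proteins 3 and 2, and they are 2 of the 49005 mouse genes with counted exon pieces in these heart libraries. Both genes were taken by name, with earlier results of these data known. Ucp3 (ENSMUSG00000032942) lies at chr7:100472990-100486432 and Ucp2 (ENSMUSG00000033685) at chr7:100493337-100502020 of GRCm38, both on the plus strand, with 6904 bases between them. Messenger RNA was sequenced from hearts of wild-type C57BL/6 mice aged 12 weeks. The 4 groups were females on chow (5 libraries), males on chow (4), females on the high-fat diet (5) and males on the high-fat diet (5). The libraries named PA are read as high fat by elimination, since the series names chow and a high-fat diet and the other libraries are named Chow. The composition and length of the diet are not given in the sources used here. The labels do not state that each library comes from its own mouse, so the spread behind each p-value may be technical.

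Uncoupling proteins belong to the SLC25 family of carriers in the inner mitochondrial membrane. Ucp1, the founding member, lets protons return to the mitochondrial matrix in brown fat, so that respiration yields heat in place of ATP. Ucp3 is found mainly in skeletal muscle, brown fat and heart, where it is known to rise when fatty acid supply is high and is regarded as a target of the nuclear receptor PPAR-alpha. Ucp2 is found in many tissues and in immune cells, and has been described as a carrier of small metabolites such as malate and aspartate. How far either protein carries protons in the living heart is disputed.

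Sequences from the reference are shown first because the genes are close relatives that lie side by side, which bears on whether their reads can be told apart and on what stands before each start. The first pair is the 102-base coding exon that both genes share in length and place, exon 5 of 7 in Ucp3-201 (chr7:100481871-100481972) and exon 6 of 8 in Ucp2-202 (chr7:100498348-100498449). Each is written 5′ to 3′ on the plus strand of GRCm38, and capitals mark the bases that are the same in both.
Ucp3 exon 5: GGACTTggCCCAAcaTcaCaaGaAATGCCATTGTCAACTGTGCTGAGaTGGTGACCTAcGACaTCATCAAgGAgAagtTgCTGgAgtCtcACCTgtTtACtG
Ucp2 exon 6: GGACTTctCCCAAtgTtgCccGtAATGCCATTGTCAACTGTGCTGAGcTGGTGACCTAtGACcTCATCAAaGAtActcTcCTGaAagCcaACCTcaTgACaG
The exons shared 75 of 102 bases, or 73.5%. Over the whole transcripts, 2448 bases in Ucp3-201 and 3988 in Ucp2-202, the longest run of identical bases they shared was 24. Read length is not given in the sources used here.

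The second pair is the stretch just before each start site, from RefSeq's promoter windows on GRCm38.p6, shown because both genes were higher on the high-fat diet. Capitals mark AGGTCA, a half-site of nuclear receptors, in Ucp3 (chr7:100472741-100472989), and the GC box GGGCGG, here on the minus strand and so read as CCGCCC, in Ucp2 (chr7:100493108-100493336).
Ucp3 promoter: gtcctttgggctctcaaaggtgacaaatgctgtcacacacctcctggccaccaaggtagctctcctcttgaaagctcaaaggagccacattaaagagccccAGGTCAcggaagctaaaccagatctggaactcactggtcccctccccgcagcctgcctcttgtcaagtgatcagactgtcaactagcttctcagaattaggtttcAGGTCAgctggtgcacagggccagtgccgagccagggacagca
Ucp2 promoter: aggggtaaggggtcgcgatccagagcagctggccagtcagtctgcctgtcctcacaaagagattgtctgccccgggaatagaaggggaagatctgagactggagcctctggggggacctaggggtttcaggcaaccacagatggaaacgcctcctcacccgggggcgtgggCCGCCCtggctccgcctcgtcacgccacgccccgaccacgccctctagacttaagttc
Both strands of each whole window, 250 bases before to 50 after the start, were searched. AGGTCA occurred at 2 places for Ucp3 (chr7:100472842-100472847 and chr7:100472947-100472952) and at 0 for Ucp2, and 16.3% of all 32851 windows of this length held it. GGGCGG occurred at 0 places for Ucp3 and 2 for Ucp2, 1 of them in the printed stretch, against 35.7% of windows with at least 1. The E-box CANNTG occurred 3 times for Ucp3 and 2 times for Ucp2 (72.3% of windows), and the last of those of Ucp3 overlaps the second AGGTCA. Neither window held TATAAA (13.6% of windows) or a direct repeat of AGGTCA with 1 base between (0.0396%). The printed stretch of Ucp2 held 13 CG pairs in 229 bases with 63.3% G and C, and that of Ucp3 held 3 in 249 bases with 54.6%. A match is a description of letters, not a bound site.

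The 19 libraries held 57805110 to 85794067 counts, and Ucp3 had 1785 to 10974 of them and Ucp2 4371 to 12574. Because a read that spans several exon pieces counts in each, totals overstate reads. The unit of level is CPM, a gene's counts relative to a library size adjusted by TMM, and both genes passed edgeR's filter on low counts. Chow male 4 was counted per gene in another way and has no place on this scale: it held 976 counts of Ucp3 and 938 of Ucp2 among 31686627. High-fat females 4 and 5 stood apart from the rest. For each 10 percentage points of GC content a gene's level was higher by 0.65 and 0.97 log2 units there, where the other 17 libraries had slopes of -0.08 to 0.17. Ucp3 and Ucp2 have a GC content of 54.7% and 55.3%, so results with high-fat females are also given for the 17 libraries without these.

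Ucp3 was lowest in chow males and higher in every other group. In chow females it stood at 113, 78.9, 83.2, 101 and 74.9 CPM, and in chow males at 34.1, 40.4, 31.2 and 24.3. In high-fat females it stood at 149, 104, 126, 136 and 159 CPM. In high-fat males it stood at 143, 114, 76.2, 89.0 and 86.4. None of these 4 chow males reached the lowest library of any other group, while the other groups overlapped: the lowest high-fat female lay under the highest chow female, and 2 of 5 high-fat females lay above all high-fat males. The means rose in the order chow males (32.5 ± 6.66 CPM, SD, n = 4), chow females (90.2 ± 16.2, n = 5), high-fat males (102 ± 27, n = 5) and high-fat females (135 ± 21.2, n = 5). Of these neighbours only the first pair differed beyond its spread by test; the middle pair, whose ranges overlap, differs in sex and diet at once and was not tested.

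**Figure D1:**
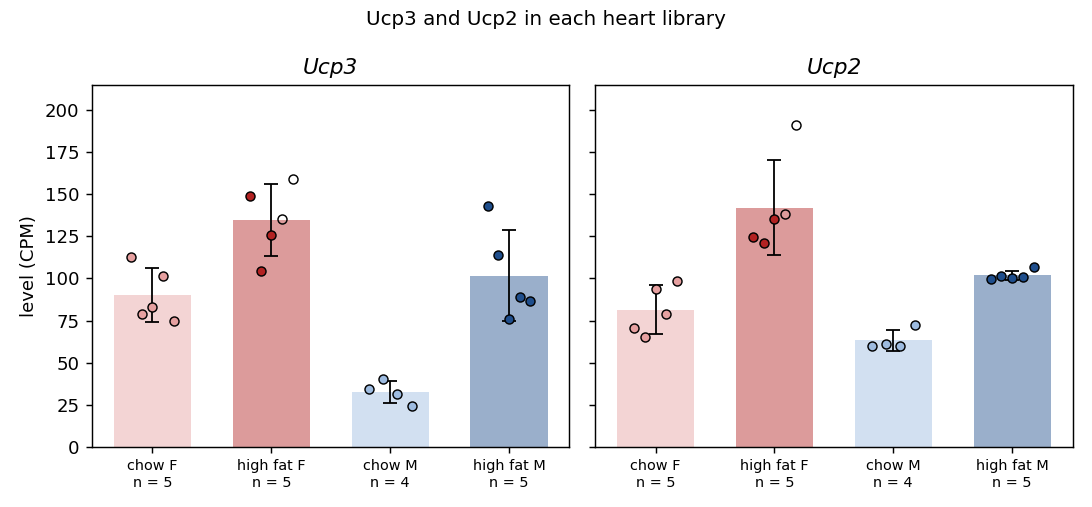
Level in CPM of Ucp3 (left) and Ucp2 (right) in each library, by group; bars are means, error bars SD, points libraries, and open points high-fat females 4 and 5. The 4 chow males sit between 24.3 and 40.4 CPM for Ucp3, under every other library, while Ucp2 spans 59.7 to 72.4 CPM in them and 65.4 to 98.6 CPM in chow females.

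Ucp2 followed a flatter course, with diet separating the groups within each sex. In chow females it stood at 70.3, 65.4, 93.9, 79.1 and 98.6 CPM, and in chow males at 60.1, 60.9, 59.7 and 72.4. In high-fat females it stood at 125, 121, 135, 138 and 191 CPM. In high-fat males it stood at 99.9, 102, 100.1, 101 and 107. All 10 high-fat libraries lay above all 9 chow libraries, and the 5 high-fat females lay above the 5 high-fat males. Means ran in the same order as for Ucp3: 63.3 ± 6.13 CPM in chow males, 81.5 ± 14.4 in chow females, 102 ± 2.84 in high-fat males and 142 ± 28.3 in high-fat females (SD, n = 4, 5, 5 and 5). The chow groups overlap and did not differ by test, and chow females and high-fat males, which do not overlap, were not compared by test because they differ in sex and diet.

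The first comparison asks what the high-fat diet changed in the male heart. Ucp3 rose 3.13-fold and Ucp2 1.61-fold in males, and in both genes the 5 high-fat males lay above the 4 chow males. For Ucp3 the log2 change was 1.65 with an SE of 0.19 (adjusted p = 0.000324 by Benjamini-Hochberg in edgeR's quasi-likelihood test), the 5th smallest p of 18069 genes. For Ucp2 it was 0.69 with an SE of 0.13 (adjusted p = 0.0176 by the same edgeR test). In this comparison 0.764% of all genes were called and 0.398% of all genes called higher, and 7.58% had groups that did not overlap. The call for Ucp2 depended on which chow male was left out. Without chow male 1, 2 or 3 the adjusted p of Ucp2 was 0.0841, 0.0699 or 0.0662 in edgeR. The log2 changes were then 0.66, 0.67 and 0.66. Without chow male 5 the call stayed, at a log2 change of 0.76 (adjusted p = 0.0278 in edgeR). The tissue was bulk heart, in which fewer cells of a type and less RNA per cell cannot be told apart.

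The same question was asked in females. Ucp2 rose 1.74-fold, with no overlap between diets, and had a log2 change of 0.80 with an SE of 0.12 (adjusted p = 0.00242 by Benjamini-Hochberg in edgeR's quasi-likelihood test). Ucp3 had a log2 difference of 0.58 with an SE of 0.17 and did not pass (adjusted p = 0.0806 in edgeR), though 4 of 5 high-fat females lay above all chow females. In this comparison 2.53% of all genes were called and 1.67% of all genes called higher, and 4.53% had groups that did not overlap. DESeq2, which called 5.76% of genes, called Ucp3 in females at a log2 change of 0.59 (adjusted p = 0.0309). Without high-fat females 4 and 5, where 4.95% of genes were called, the edgeR values were 0.64 for Ucp2 (adjusted p = 0.00137) and 0.48 for Ucp3 (adjusted p = 0.127). The call for Ucp2 was lost when only the female libraries were fitted (log2 change 0.81, adjusted p = 0.0980 in edgeR).

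Averaged over the sexes, the diet raised Ucp3 by 1.11 log2 units with an SE of 0.13 and Ucp2 by 0.74 with an SE of 0.09. The adjusted p-values in edgeR were 7.46e-05 and 0.000101, and 2.93% of all genes were called and 1.73% of all genes called higher. The difference between the diet effects of the sexes, female minus male, was -1.07 log2 units with an SE of 0.25 for Ucp3 and 0.11 with an SE of 0.18 for Ucp2. Neither passed in edgeR's quasi-likelihood test (adjusted p = 0.215 and 0.790), which called 0 of 18069 genes, or 0%, for this interaction, while 1839 had an unadjusted p under 0.05. Ucp3 had the 44th smallest p. DESeq2 called 58 genes (0.373%) for the interaction, Ucp3 among them with a log2 value of -1.07 (adjusted p = 0.0285). The tools thus differ on whether the diet effect on Ucp3 differed between the sexes.

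The second question is how the sexes differ on each diet. On chow, Ucp3 was 2.78-fold higher in females than in males, with no overlap, a log2 difference of 1.47 and an SE of 0.19 (adjusted p = 0.000181 by Benjamini-Hochberg in edgeR's quasi-likelihood test). Ucp2 had a log2 difference of 0.36 with an SE of 0.13 and did not pass (adjusted p = 0.143 in edgeR), with 3 of 5 females above all males. On chow 3.22% of all genes were called and 1.73% of all genes called higher in females, and 11.7% had groups that did not overlap. High-fat females 4 and 5 enter this contrast only through the shared scaling, filter and estimate of spread. Once they were left out, 10.5% of genes were called and Ucp2 passed at a log2 difference of 0.37 (adjusted p = 0.0166 in edgeR); without high-fat female 5 alone its adjusted p was 0.0410.

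On the high-fat diet the log2 differences of the genes between the sexes were close to each other, and 1 of them passed. Ucp2 was higher in females by 0.48 log2 units with an SE of 0.12 (adjusted p = 0.0189 by Benjamini-Hochberg in edgeR's quasi-likelihood test), with no overlap. Ucp3 had a log2 difference of 0.41 with an SE of 0.17 and did not pass (adjusted p = 0.130 in edgeR). Here 10.3% of all genes were called and 6.4% of all genes called higher in females, and 10% had groups that did not overlap. With those females left out 10.4% of genes were called, but the difference in Ucp2 was 0.32 log2 units and missed the threshold (adjusted p = 0.0504 in edgeR), with a mean of 127 ± 7.54 CPM (SD, n = 3) in the remaining females. For Ucp3 it was 0.31 (adjusted p = 0.304 in edgeR) without those libraries and 0.56 (adjusted p = 0.0441) without high-fat male 1, the highest male.

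**Figure D2:**
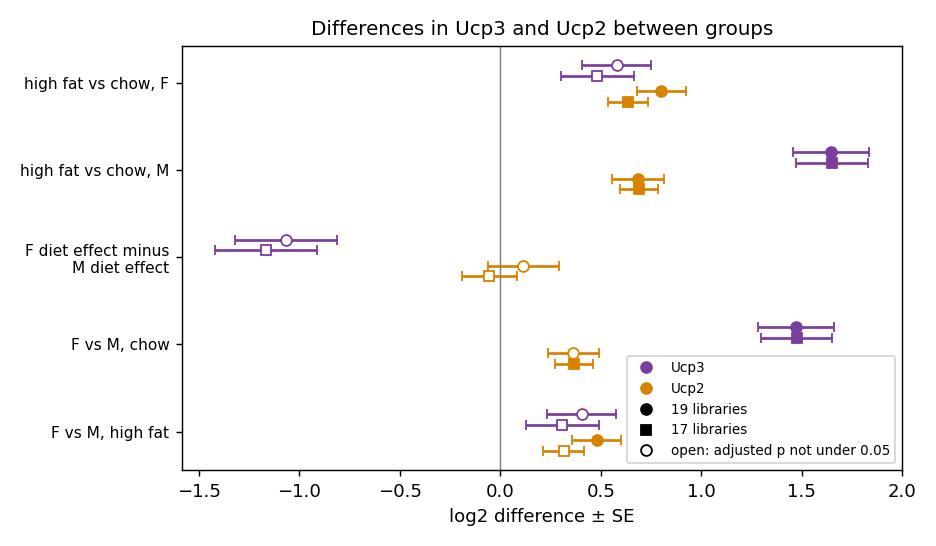
Log2 difference ± SE of Ucp3 (purple) and Ucp2 (orange) in 5 contrasts, with 19 libraries (circles) and without high-fat females 4 and 5 (squares); open symbols have an adjusted p not under 0.05 in edgeR. The changes of Ucp3 in males (1.65) and between the sexes on chow (1.47) stand apart from its values in females (0.58) and on high fat (0.41), while those of Ucp2 lie between 0.32 and 0.80 apart from the interaction.

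Because both genes were read in the same libraries, their ratio does not depend on library size. The log2 ratio of Ucp3 to Ucp2 was 0.94 higher in high-fat than in chow males and 1.13 higher in chow females than in chow males. Exact two-sided permutation tests gave p = 0.00794 and 0.0159, both 0.0317 after Benjamini-Hochberg adjustment over 4 comparisons. The ratio differed by -0.22 between diets in females (exact permutation p = 0.333, adjusted 0.444) and by -0.031 between the sexes on high fat (exact permutation p = 0.897, adjusted 0.897). With chow male 4 joined from its per-gene counts, the changes in males and on chow were 0.73 and 0.92, each with an adjusted exact permutation p of 0.0952. Its counts are not by piece, so its ratio is on another scale than the rest. In that setting the way of counting and the level of the genes cannot be told apart.

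The exons of equal length put the genes on 1 scale per base. In chow females exon 5 of Ucp3 stood at 1.71, 1.40, 0.947, 1.34 and 0.779 times exon 6 of Ucp2. In chow males the ratio was 0.590, 0.587, 0.583 and 0.329. In high-fat females it was 1.35, 0.974, 1.09, 1.07 and 0.926, and in high-fat males 1.68, 1.15, 0.823, 0.882 and 0.918. In this exon pair each of the 4 chow males counted by piece thus held less Ucp3 than Ucp2. Its ratio lay under that of all 15 other libraries, which spread on both sides of equal levels. Over all counted bases, 3135 in Ucp3 and 6989 in Ucp2, the order differed. Chow males 1, 2 and 3 held 2546, 2901 and 2600 counts of Ucp3 and 4482, 4371 and 4974 of Ucp2, more Ucp3 per base. Chow male 5, with 1785 and 5311, held less. Which gene was higher per base in chow males thus depends on the bases counted. Those of Ucp2 include 2221 intron bases, which held 15 to 30 counts in each of the 4 chow males. They also include a final piece of 2718 bases that held 6012 counts over all libraries. Such thinly covered bases lower the level of Ucp2 over all counted bases and are absent from the exon pair. Chow male 4, counted per gene, held more counts of Ucp3 than of Ucp2 (976 and 938) and could not be put on the scale of the exon pair. Mean ratios were 1.24 ± 0.374, 0.522 ± 0.129, 1.08 ± 0.165 and 1.09 ± 0.353 (SD, n = 5, 4, 5 and 5, in the same order of groups).

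**Figure D3:**
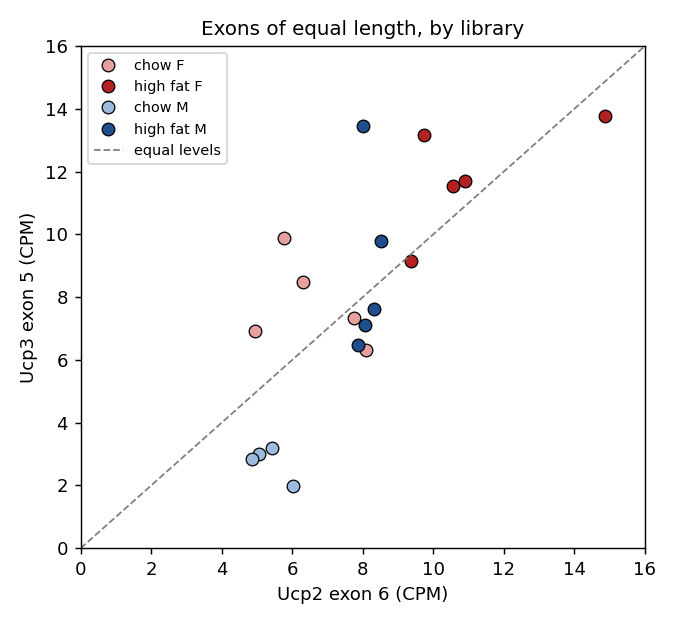
CPM of Ucp3 exon 5 against CPM of Ucp2 exon 6, each 102 bases long, in the 19 libraries, coloured by group; the dashed line marks equal levels. The 4 chow males, with ratios of 0.329 to 0.590, lie below the line and apart from the other groups, which lie on both sides of it.

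The differences held along both genes. Of the 16 pieces of Ucp3, 13 belong to exons of the transcript that spans the gene and had at least 100 counts in each group compared. All 13 were higher in high-fat than in chow males, by 1.31 to 1.77 log2 units, and higher in chow females than in chow males, by 1.08 to 1.60, with no overlap in either comparison. Between diets in females they differed by 0.54 to 0.72, and 1 of 13 did not overlap. Of the 33 pieces of Ucp2, 20 met the same terms: all 20 were higher on high fat in females, by 0.71 to 1.15 log2 units, and in males, by 0.58 to 0.88, with no overlap. Between the sexes 5 of 20 did not overlap on chow and 16 of 20 on high fat. Pieces of a gene share reads, so these counts describe evenness along the gene and are not replicates.

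**Figure D4:**
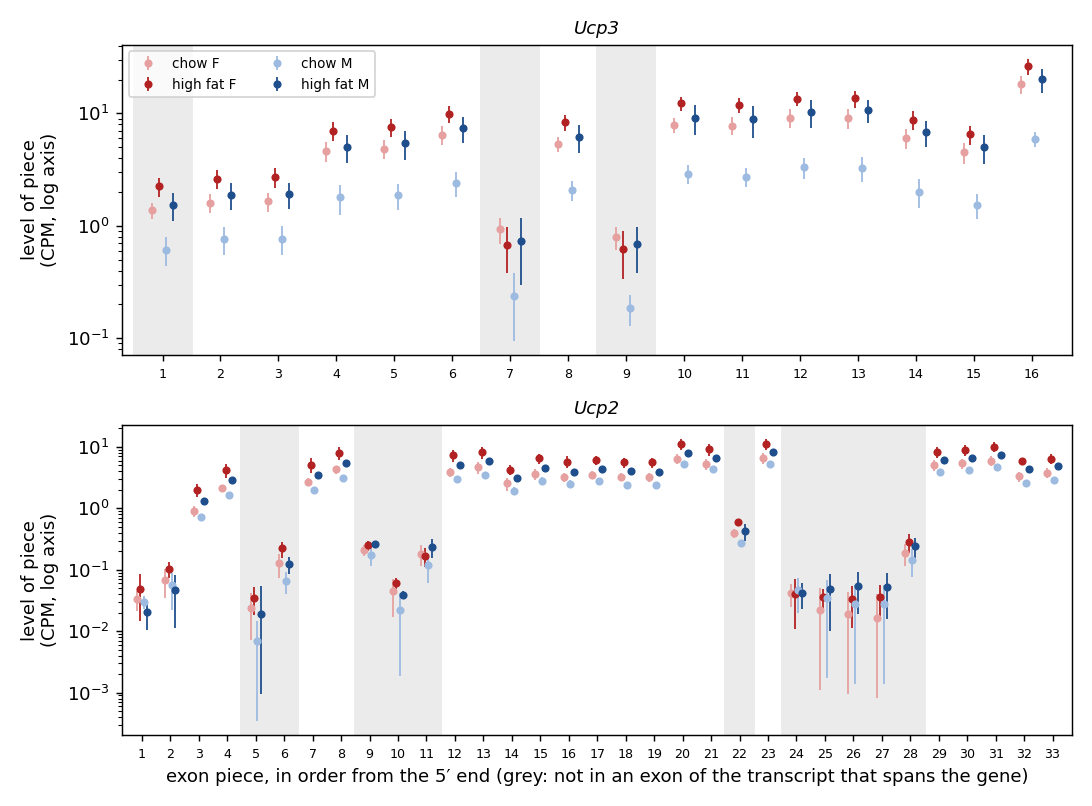
Mean level of each exon piece of Ucp3 (top) and Ucp2 (bottom) by group, in CPM on a log axis, in order from the 5′ end; error bars are SD, drawn down to at most 95% of the mean, and grey marks pieces outside the exons of the transcript that spans the gene. Chow males are lowest at every exon piece of Ucp3, and the grey pieces, apart from the single base at the start of Ucp3, lie under most exons.

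Counts of single pieces bear on which start and end of each gene was in use. For Ucp2, the last 80 bases of exon 1 of Ucp2-202 held 108 to 397 counts in a library. The first exons of other annotated transcripts held 0 to 5 counts (Ucp2-203), 3 to 19 (Ucp2-209) and 0 to 6 (Ucp2-204), so the first exon of Ucp2-202 carried most of the reads. The final piece of Ucp2, 2718 bases long, held 6012 counts over all libraries, against 5388 in the 67-base piece before it, so that most of that annotated tail was thinly covered. For Ucp3, the final 1006-base piece of exon 7 held 23859 counts, so reads reached into the long 3′ end of Ucp3-201. It held the most counts of the pieces of Ucp3 but is also the longest, and a 103-base piece of the same exon held 8029. How evenly the long piece was covered cannot be read from its total.

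Reads within introns gave a second view of Ucp3. Pieces that belong only to transcripts with a retained intron stood at 1.72 ± 0.414 CPM in chow females (range 1.15 to 2.27), 0.423 ± 0.196 in chow males (0.268 to 0.696), 1.29 ± 0.564 in high-fat females and 1.42 ± 0.724 in high-fat males (0.577 to 2.51; SD, n = 5, 4, 5 and 5). Chow females lay above chow males without overlap here too, and the male diets overlapped. Per base this was 5.70%, 4.03%, 3.0% and 3.99% of the coding exons in the same order, and counts were low, from 20 to 192 in a library. The like pieces of Ucp2 stood at 0.148% to 0.240% of its coding exons in the group means.

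The wider uncoupling group was then followed. Ucp1 had at most 2 counts in any library and 0 in every high-fat library, too few to be tested. A count of 0 allows up to 3 counts, worth 0.0360 to 0.0539 CPM here, which covers counting error only. Slc25a27 (UCP4), Slc25a14 (UCP5) and Slc25a30 (KMCP1), relatives best known from brain and kidney, were all below 7 CPM on group means. Of them Slc25a30 rose with diet on average, by 0.23 log2 units with an SE of 0.05 (adjusted p = 0.0191 by Benjamini-Hochberg in edgeR's quasi-likelihood test), from 5.49 to 6.17 CPM in females and from 4.92 to 6.06 in males, but it was called in neither sex alone. Slc25a27 and Slc25a14 were not called in any of the 6 contrasts. The adenine nucleotide carriers Slc25a4 (ANT1), which exchanges ADP for ATP in heart, and Slc25a5 (ANT2) stood at 3500 and 200.5 CPM in chow females and 3516 and 221 in chow males, and neither was called in any contrast.

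Among all tested SLC25 carriers, 47 genes including these members, 3 rose and 1 fell with diet in females and 4 rose and 1 fell in males. That is 8.51% and 10.6% of the family, where 2.53% and 0.764% of all genes were called. The counts without high-fat females 4 and 5 were 1 and 7 in females and 6 and 3 in males, where 4.95% and 2.59% of all genes were called. Slc25a20, the carnitine-acylcarnitine carrier that brings fatty acids to the matrix, rose in females by 0.39 log2 units with an SE of 0.09 (adjusted p = 0.0313 in edgeR). Slc25a34 rose in females by 0.34 and in males by 0.46, and Slc25a13, an aspartate-glutamate carrier, fell by 0.25 in females. Slc25a29, a carrier of basic amino acids, fell by 0.56 log2 units in males. On chow the only called carriers were Ucp3 and Slc25a22, or 4.26% of the family against 3.22% of all genes, a share near the background. Slc25a22, a glutamate carrier, was 0.56 log2 units higher in females with an SE of 0.12 (adjusted p = 0.0130 in edgeR). Without high-fat females 4 and 5, 6 carriers were higher and 5 lower in females, or 23.4% of the family against 10.5% of all genes. On high fat 4 carriers were higher in females and 2 lower (2 and 4 without those libraries), or 12.8% of the family against 10.3% of all genes, a share near the background. The family's median log2 change was -0.025 in females and 0.019 in males, and over all genes -0.018 and 0.0024.

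Genes known as PPAR-alpha targets in heart were counted next. Of 31 tested, a list that does not hold Ucp2 or Ucp3, 13 rose in females and 15 in males and 0 fell. These are 41.9% and 48.4% of the list, where 2.53% and 0.764% of all genes were called. At an unadjusted p under 0.05 in either direction there were 26 and 27, and DESeq2 called 19 and 17. Their median log2 change was 0.31 in females and 0.33 in males. With the 17 libraries, 9 rose and 1 fell in females, and 27 rose and 1 fell in males, where 4.95% and 2.59% of all genes were called. Pdk4, a kinase that holds back pyruvate oxidation, rose by 1.45 log2 units in females and 2.48 in males, and Acot2, a mitochondrial thioesterase of fatty acyl-CoA, by 0.96 and 0.99. Between the sexes on chow, 3 of 31 were higher in females: Cpt1a, which commits fatty acids to mitochondrial entry, by 0.50, the fatty acid transporter Slc27a1 by 0.36 and Angptl4, an inhibitor of lipoprotein lipase, by 1.54 log2 units. These 3 are 9.68% of the list, against 3.22% of all genes called on chow. With the 17 libraries 4 were higher and 1 lower, or 16.1% of the list against 10.5% of all genes. On high fat 1 of 31 was higher in females, Cpt1a by 0.35 log2 units, and 3 were lower, with log2 values of -0.29 for Acadm, an acyl-CoA dehydrogenase, -0.40 for the fatty acid transporter Cd36 and -0.79 for Pdk4. Those 4 are 12.9% of the list, against 10.3% of all genes, while with the 17 libraries 0 were higher and 14 lower, or 45.2% against 10.4%.

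Angptl4 was lowest in chow males, as was Ucp3. Its means were 3.69 ± 1.15 CPM in chow males, 10.7 ± 5.21 in chow females, 21.04 ± 4.72 in high-fat females and 26.6 ± 16.5 in high-fat males (SD, n = 4, 5, 5 and 5). It rose by 2.85 log2 units with an SE of 0.42 in males (adjusted p = 0.00242 by Benjamini-Hochberg in edgeR's quasi-likelihood test), and by 0.97 with an SE of 0.36 in females, which did not pass (adjusted p = 0.159 in edgeR). High-fat male 1 was the highest library of all for Angptl4 and the highest male for Ucp3, at 52.8 and 143 CPM. Without it the mean of Angptl4 in high-fat males was 20.1 ± 8.75 CPM (SD, n = 4), so that this library sets the order of the high-fat sexes. Ppara itself stood between 30.8 and 36.9 CPM on group means and was called in no contrast, and neither was the cofactor Ppargc1a. Of 19 tested nuclear receptors and cofactors, edgeR called 0 with diet in females, in males or on average, where 5, 4 and 4 had an unadjusted p under 0.05 and DESeq2 called 1, 0 and 2. Between the sexes on high fat, Thra was higher in females by 0.22 log2 units and Pparg lower by 0.43 (log2 value -0.43). Those 2 are 10.5% of the list, near the 10.3% of all genes called. Without high-fat females 4 and 5, 1 was higher and 4 lower, or 26.3% of the list against 10.4% of all genes.

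Ucp2 and Ucp3 have been linked to the peroxide output of mitochondria, so genes of peroxide and superoxide removal were counted. Of 11 tested, Cat, the peroxisomal catalase, rose with diet in females by 0.38 log2 units with an SE of 0.07 (adjusted p = 0.00920 by Benjamini-Hochberg in edgeR's quasi-likelihood test). That is 9.09% of the list, where 2.53% of all genes were called. EdgeR called 0 in males, where 3 had an unadjusted p under 0.05 and DESeq2 called 2. Gpx1, a glutathione peroxidase, was 0.27 log2 units higher in females on high fat, 9.09% of the list and near the 10.3% of all genes called. With the 17 libraries, 1 rose and 2 fell in females, 1 rose and 1 fell in males, and 0 were higher and 2 lower in females on high fat. In these comparisons 4.95%, 2.59% and 10.4% of all genes were called.

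Deviations from the group means were compared to see whether the genes vary together among libraries of a group. Over 19 libraries Ucp3 and Ucp2 had a Pearson r of -0.072 and a Spearman rho of -0.15 (permutation p = 0.758 and 0.525, adjusted 0.991 and 0.700). That r was -0.327 without high-fat female 5 and chow male 3, the libraries farthest out, and -0.340 without high-fat females 4 and 5 (permutation p = 0.167, adjusted 0.208). Ucp3 and Angptl4 had r = 0.585 and rho = 0.472 (permutation p = 0.0279 and 0.0804, adjusted over 4 relations 0.112 and 0.170), with r = 0.709 without chow males 2 and 5, the libraries farthest out. Ucp3 and Pdk4 had r = 0.411 and rho = 0.440 (permutation p = 0.0885 and 0.0848, adjusted 0.177 and 0.170; r = 0.457 without the 2 farthest). None of the relations passed after adjustment. With 5 libraries at most in a group, within-group values alone could not be given.

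Across all 19 libraries the genes most like Ucp3 by Pearson r of log2 CPM, among 12011 compared, were Slc25a22 (0.951), Cpt1a (0.941), Lipe (0.933), Npc1 (0.926) and Sin3a (0.879). Lipe encodes hormone-sensitive lipase, Npc1 a cholesterol exporter of lysosomes, and Sin3a a scaffold of histone deacetylase complexes. These r values reflect mostly the groups, which the libraries share. Slc25a22, for instance, stood at 69.6 ± 7.34 CPM in chow males against 103 ± 7.09, 103 ± 17.2 and 116 ± 17 in chow females, high-fat males and high-fat females. Slc25a22, Cpt1a, Lipe and Npc1 rose in males with diet and were higher in females on chow by edgeR's test, at smaller folds than Ucp3: Cpt1a by 0.47 and 0.50 log2 units, Lipe by 0.67 and 0.52, and Npc1 by 0.40 and 0.38. Pdk4 had an r of 0.632 with Ucp3. It stood at 318 ± 81.3 CPM in chow females and 269 ± 43.2 in chow males, and on high fat at 866 ± 177 in females and 1499 ± 200.2 in males (SD, n = 5, 4, 5 and 5), where it was lower in females. In the 17 libraries Npc1, Slc25a22, Cpt1a and Lipe were again the closest, and Tesmin took the fifth place with 0.897.

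**Figure D5:**
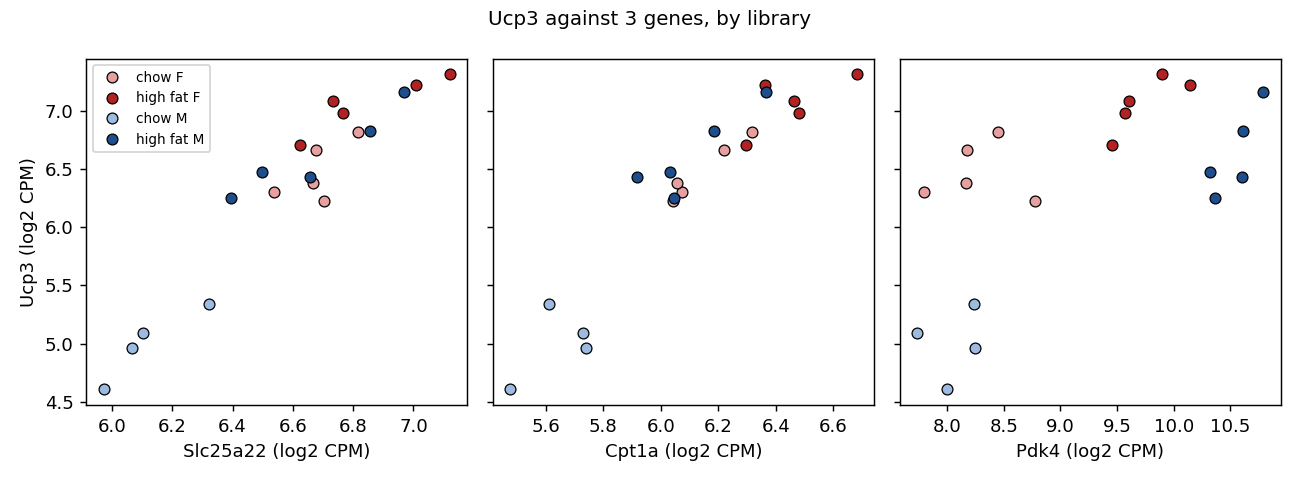
Log2 CPM of Ucp3 against Slc25a22, Cpt1a and Pdk4 in the 19 libraries, coloured by group. Ucp3 runs along a line with Slc25a22 (r = 0.951) and Cpt1a (r = 0.941), with chow males at the low end, and is spread against Pdk4 (r = 0.632), where both chow groups lie at the left.

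Genes among the most like Ucp2 were other ones: Colec11, a collectin (0.930), Grn, the precursor of granulins (0.927), Fkbp10, a collagen chaperone (0.926), and Gpx3, a secreted glutathione peroxidase (0.904). Each of these rose with diet in females by edgeR's test, by 0.39 to 0.61 log2 units (Grn and Fkbp10), and none of them was called in males. Ucp3 ranked 148th in likeness to Ucp2 and Ucp2 50th in likeness to Ucp3, with r = 0.76. In the 17 libraries Grn, Colec11, Fkbp10 and Trim25 led, at 0.905 to 0.889, and Gpx3 ranked 10th.

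Of the tested genes beside the pair, 1 of 6 was called in any contrast. C2cd3 and Ppme1 before Ucp3, and Dnajb13, Coa4 and Mrpl48 after Ucp2, were called in none by edgeR. Gm10603, which runs antisense and has its first exon within the first intron of Ucp3, rose in males with diet by 0.68 log2 units with an SE of 0.13 (adjusted p = 0.0178 by Benjamini-Hochberg in edgeR's quasi-likelihood test). On chow it was 0.73 log2 units higher in females with an SE of 0.13 (adjusted p = 0.00429 in edgeR). No source states that strand was used in counting, so its reads inside Ucp3 cannot be told apart from those of Ucp3. Those reads were 4 to 46 counts in a library. The 5 pieces before Ucp3 (chr7:100446737-100467190) lie within the span of C2cd3 (chr7:100372233-100470152), so their reads cannot be told apart from those of C2cd3 either. These 5 pieces held 89 to 183 counts and were lowest in chow males, at 1.45 ± 0.153 CPM. They stood at 2.26 ± 0.203 in chow females, 2.23 ± 0.153 in high-fat males and 2.09 ± 0.255 in high-fat females (SD, n = 4, 5, 5 and 5). The order of these other groups was not that of Ucp3. In these pieces the highest chow male, at 1.60 CPM, lay under the lowest library of every other group. Groups did not overlap in 7.58% of all genes for diet in males and in 11.7% between the sexes on chow.

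Markers of other cells that hold uncoupling proteins were read beside these results. The 6 brown fat markers summed to 106 to 118 CPM in chow females, 125 to 180 in chow males, 65.8 to 121 in high-fat females and 146 to 180 in high-fat males. Of them Ucp1 and Elovl3 had at most 2 counts in a library and Dio2 at most 0.782 CPM. Cidea stood at 17.5 to 34.4 CPM, with means of 19.7 and 26.2 in chow and high-fat females and 20.3 and 26.1 in males, and was the 1 of 4 tested that edgeR called higher with diet on average. Prdm16 stood at 13.2 to 21.2 CPM and Ppargc1a, which heart muscle also makes, at 13.7 to 138. The part of such cells in the levels of Ucp3 was not tested. Fast skeletal muscle, rich in Ucp3, had at most 1 count of Myh4 and 6 of Myh1 or Myh2, and its 7 markers other than Acta1, an actin that heart also makes, summed to 4.67 ± 0.599 CPM in chow females, 4.10 ± 0.418 in chow males, 4.38 ± 0.753 in high-fat females and 4.24 ± 0.762 in high-fat males (SD, n = 5, 4, 5 and 5). With Acta1 the sum ran from 60.4 to 114 CPM in chow females and from 118 to 231 in chow males, opposite in direction to Ucp3. Macrophages hold Ucp2, and their 11 markers summed to 223 to 303 CPM in chow females, 264 to 314 in chow males, 245 to 276 in high-fat females and 222 to 273 in high-fat males, with overlap between the diets in each sex. EdgeR called 0 of the 11 with diet in either sex, where 5 in females and 3 in males had an unadjusted p under 0.05 and DESeq2 called 0 and 0. Between the sexes on high fat 2 of the 11 were higher in females, where 10.3% of all genes were called.

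Other lists differed in some of the comparisons in which Ucp2 was called, and not in others. The 7 fibroblast markers summed to 1195 to 1342 CPM in chow females and 1473 to 1791 in high-fat females, and to 1168 to 1252 in chow males and 1229 to 1359 in high-fat males. Of them 3 were called higher with diet in females, where 2.53% of all genes were called. On high fat 5 were higher in females than in males, where 10.3% of all genes were called. Ucp2 was called in both comparisons. With diet in males, where Ucp2 was also called, edgeR called 0 of the 7, 1 had an unadjusted p under 0.05 and DESeq2 called 0. On chow, where Ucp2 was not called, 2 of the 7 were higher in females, against 3.22% of all genes called. The 7 endothelial markers ran from 885 to 1012 CPM in chow females and from 1037 to 1132 in high-fat females, with 3 called higher. EdgeR called 0 of these 7 with diet in males or between the sexes on high fat. There 1 and 0 had an unadjusted p under 0.05, and DESeq2 called 0 and 0. The 8 white fat markers summed to 369 to 433 CPM in chow males and to 510 to 528 in high-fat males, with 1 called. The sum did not stand for the whole list, since the median log2 change of the 7 tested was -0.066 in males. The part of these lists in the change of Ucp2 was not tested. The 8 cardiomyocyte markers were high in every library, and their sum was lower on high fat on average, against the direction of Ucp3 and Ucp2. They summed to 95678 to 103260 CPM in chow males and 86140 to 91912 in high-fat males, with no overlap, and to 99344 ± 2898 and 90702 ± 7001 in chow and high-fat females (SD, n = 5 and 5). EdgeR called 1 of the 8 lower with diet in females and 0 in males, where 4 had an unadjusted p under 0.05 and DESeq2 called 0. Between the sexes on chow edgeR called 0, with 0 at an unadjusted p under 0.05 and 0 by DESeq2. The 4 atrial markers summed to 94.9 to 154 CPM in chow females and 40.7 to 90.3 in high-fat females, with no overlap. Of 3 tested, 1 was called lower with diet in females, where 2.53% of all genes were called. The female sum did not stand for the whole list, since the median log2 change of the 3 tested was 0.20. In males the sums were 99.6 ± 32.1 and 58.9 ± 11.2 on chow and high fat (SD, n = 4 and 5), with a median log2 change of -0.25. The 5 red cell markers summed to 263 ± 22.7 and 361 ± 82.5 CPM in chow and high-fat females and 291 ± 28.7 and 343 ± 57.1 in males; edgeR called 0 of 5 with diet in either sex, where 4 in females and 0 in males had an unadjusted p under 0.05 and DESeq2 called 3 and 0. The part of these sums in the results for Ucp3 and Ucp2 was not tested.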

How the data were processed

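Per the labels' protocols, RNA of hearts kept in RNAlater was selected for polyA tails and sequenced on an Illumina NovaSeq. The deposited values are whole counts. DESeq2 1.32.0, Salmon 1.5.1 and GRCm39 are named, with no role, in the submitters' processing notes, while the files hold counts for 425461 exon pieces in 19 libraries and, in chow male 4, for 49315 genes. Coordinates and symbols match GENCODE vM21 of GRCm38 (91.4% of genes at the same place), so GRCm38 is used. Pieces were summed per gene ID; 27829 of 33309 pieces with joined IDs were given to 1 gene and 5480 were left out (1.35% to 1.49% of counts). EdgeR 4.0.16 fitted 1 quasi-likelihood model over 4 groups with TMM scaling, with 15 residual degrees of freedom, and adjusted p-values by Benjamini-Hochberg over 18069 genes passing its filter; a call is an adjusted p under 0.05. Log2 levels used a prior count of 2. Ratios were tested by exact permutation and relations with 100000 permutations. Per-base levels of Ucp3 against Ucp2 in the text come from the exon pair of 102 bases, unless all counted bases are named.

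The genes and lists were chosen with earlier results of these data known. Named are both genes, up to 4 called members per list and contrast with the smallest p, 10 fixed genes, the 5 most alike and the 3 nearest tested genes on each side. Of the genes this rule names, 2 are not reported here. Other genes named are markers of a cell type, some chosen after their values were seen. Alternatives were DESeq2 1.42.0, its size factors, no filter, a filter of 1 CPM in 5 libraries, a GC offset, the largest piece, only the groups compared, a replicate block, chow male 4 joined, high-fat females 4 and 5 left out, each library left out, and a prior count of 0.5. The exon pair as a ratio was added after the data were seen. Scripts were tested on simulated counts.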

Additional observations from a re-analysis of the deposited data

Results flagged for a closer look

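Among 12 sets of group values looked at, 3 had a library farther from its nearest neighbour than the critical value of Dixon's test allows, all for Ucp2; chance gives about 1 in 20. Chow male 5 had 72.4 CPM, where the other chow males had 59.7 to 60.9. High-fat female 5 had 191 CPM, where the others of its group had 121 to 138; it is one of the libraries whose levels rise with GC content. High-fat male 5 had 107 CPM, where the others had 99.9 to 102, a small distance in a narrow group. In Ucp3 no library was set apart in this way, and chow male 5 was the lowest of its group, at 24.3 CPM.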

How the results depend on the processing

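The rises of Ucp3 in males, on average and of chow females over chow males, and of Ucp2 on average, passed under every alternative run. Chow male 4 was counted per gene and not by piece, so fits that join it mix different scales of counts. With it joined, Ucp2 lost its call for diet in females (0.80, adjusted p = 0.0552 in edgeR) and between the sexes on high fat (0.48, 0.136). When only the groups compared were fitted, it lost the same calls (0.81 and 0.47), and by the largest piece those for diet in males (0.72) and sex on high fat (0.46). Without high-fat females 4 and 5, Ucp2 gained sex on chow (0.37) and lost sex on high fat (0.32). DESeq2 gave Ucp3 calls for diet in females (0.59) and the interaction (-1.07). The cause was not tested. The ratio lost its calls with chow male 4 joined (0.73 for diet in males, 0.92 for sex on chow), where the way of counting and the level of the genes cannot be told apart.

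Leaving out 1 library in turn gave 0.66 to 0.76 for Ucp2 in males (call lost in 3), 0.29 to 0.43 for Ucp2 on chow (gained in 1), 0.32 to 0.56 for Ucp3 on high fat (gained in 1) and -0.021 to 0.19 for the interaction of Ucp2. The ratio ran from 0.74 to 1.07 for diet in males (call lost in 7 of 19), from 0.93 to 1.26 on chow (lost in 12) and from -0.12 to 0.11 on high fat, where fewer splits raise the smallest p. Uncalled values changed sign: the interaction of Ucp2 was -0.047 with chow male 4 joined and -0.054 without high-fat females 4 and 5, the ratio on high fat 0.012 by the largest piece, 0.031 by the exon pair and 0.020 without those females, and the relation of Ucp2 with macrophage markers r = 0.453 without them against -0.004 with them.

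Labels number the replicates, and the deviations of same-numbered libraries had r from -0.23 to 0.30, with 10 of 27 pairs over 0.1. Libraries with different numbers were not compared, so whether the numbers mark pairs was not tested. With a replicate block, edgeR gave log2 changes of 1.62 for Ucp3 and 0.70 for Ucp2 in males and 0.80 for Ucp2 in females, and no call of either gene changed. The blocked ratio gave 0.97 for diet in males and 1.07 on chow, with an adjusted exact permutation p of 0.25 in each, since 4 pairs cannot go below 0.125.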
